A study of Mus musculus with 16 samples.

Results

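Aldehyde and carbonyl detoxification was followed in mouse liver through 10 genes: the aldehyde dehydrogenase genes Aldh2, Aldh1a1, Aldh1b1, Aldh3a2 and Aldh9a1, the alcohol dehydrogenase gene Adh1, the aldo-keto reductase genes Akr1a1 and Akr7a5, and the carbonyl reductase genes Cbr1 and Cbr3. They were found by matching the transcript accession of each array probe to its gene symbol. Each gene had exactly 1 probe, so the set is 10 of 55681 probes on the array, and all 10 passed the filter on dim probes that 29688 probes passed. Those 29688 probes stood for 22023 genes or transcripts.

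All animals were female B6C3F1 mice, an F1 hybrid strain used in toxicology, 5 to 6 weeks old when bought and then given time to settle. Treated mice were gavaged with furan at 8 mg/kg body weight in corn oil over 21 days, controls received the corn oil vehicle by the same route, and livers were removed 4 h after the last dose. The labels name no transgene or allele. Livers were left in formalin for 18 h or 3 weeks before embedding. RNA was taken from 1 section of 10 µm for the 18 h livers and from 2 such sections for the 3-week livers, so the number of sections and the time in formalin cannot be told apart. There were 4 arrays in each of 4 groups (corn oil or furan, 18 h or 3 weeks). Liver cDNA in Cy5 was set on each array against a pool of all samples in Cy3, and every value below is a log2 ratio of liver over that pool unless another scale is named. The 3-week corn oil arrays numbered 2.1 and 2.2 share a sample number, were read as 1 animal and were averaged, which left 3 corn oil samples at 3 weeks and 15 samples in all. A ratio to the pool gives no level that can be set against another gene's, so each gene was compared only with itself.

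Furan is a small ring ether that a liver cytochrome P450 enzyme opens to a reactive unsaturated dialdehyde, which binds proteins and glutathione. Aldehydes leave the hepatocyte by oxidation to acids, the work of the aldehyde dehydrogenases, or by reduction to alcohols, the work of the aldo-keto and carbonyl reductases. Alcohol dehydrogenase runs between alcohol and aldehyde in either direction. Several of the reductases are known targets of the antioxidant transcription factor Nrf2, which binds a short sequence called the antioxidant response element.

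The promoter windows of Cbr1 and Cbr3 are shown because these genes lie on the same chromosome and both rose with furan at 18 h, and that of Aldh9a1 because it alone among the 9 genes with a window held the letters searched. Each is the 250 bases before the RefSeq transcript start on GRCm38.p6, written 5′ to 3′ along the gene's strand, with any match to the response element core TGACNNNGC on either strand in capitals. Cbr1 lies at chr16:93607587-93607836 (+ strand), Cbr3 at chr16:93682969-93683218 (+ strand) and Aldh9a1 at chr1:167349741-167349990 (+ strand).
Cbr1: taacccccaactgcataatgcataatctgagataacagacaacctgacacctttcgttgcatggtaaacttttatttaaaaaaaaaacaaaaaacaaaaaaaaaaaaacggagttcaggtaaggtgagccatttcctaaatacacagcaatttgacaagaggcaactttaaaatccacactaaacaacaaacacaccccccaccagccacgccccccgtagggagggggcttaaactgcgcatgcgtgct
Cbr3: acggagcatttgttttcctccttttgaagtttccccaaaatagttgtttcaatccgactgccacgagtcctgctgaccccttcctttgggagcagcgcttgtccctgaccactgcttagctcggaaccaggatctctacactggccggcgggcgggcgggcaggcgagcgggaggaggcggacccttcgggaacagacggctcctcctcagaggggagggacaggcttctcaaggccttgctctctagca
Aldh9a1: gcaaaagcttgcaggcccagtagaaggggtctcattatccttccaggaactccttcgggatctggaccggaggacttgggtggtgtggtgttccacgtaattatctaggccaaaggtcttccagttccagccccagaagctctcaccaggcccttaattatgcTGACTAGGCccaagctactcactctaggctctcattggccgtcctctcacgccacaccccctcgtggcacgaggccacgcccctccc
In Aldh9a1 the match TGACTAGGC began 87 bases before the start. RefSeq gave 10 windows for 9 of the genes (2 for Aldh1a1), and 1 of the 10 windows held a match. Of all 32851 mouse windows of this length 3338 did (10.2%), so the share among the members was near the background. The Cbr1 and Cbr3 windows did not hold these letters, which says nothing of sites outside them.

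In the 18 h groups 47.2% of probes passed the limma test between furan and corn oil (Benjamini-Hochberg adjusted p under 0.05, here called), so a call by itself was common at that time. At 3 weeks 0.118% of probes were called. The share of spots well above background was 44.6% to 50.4% on the corn oil and 52.2% to 55.5% on the furan arrays at 18 h, a difference of 6.45 percentage points (exact permutation p = 0.0286, the smallest that 4 against 4 can give). At 3 weeks it was 32.3% to 36.6% and 35.9% to 41.5% (difference 3.96 percentage points, exact permutation p = 0.0571). Between the times (3 weeks minus 18 h) this share differed by -13.3 percentage points with corn oil and -15.7 with furan (exact permutation p = 0.0286 for each). The median signal over background differed by 0.082 with furan at 18 h and -0.0724 at 3 weeks (exact permutation p = 0.429 and 0.543). Between the times it differed by -0.0997 with corn oil and -0.254 with furan (exact permutation p = 0.571 and 0.114). The share thus moved with furan at 18 h and with time in formalin. Of 7 measured hepatocyte markers 6 fell and 1 rose with furan at 18 h, with a median difference of -0.72 and a mean level of the list of 0.38 to 0.50 in corn oil and -0.15 to 0.02 in furan samples; with each array centred on its median instead of by loess, 2 fell and 1 rose. At 3 weeks that mean level was -0.82 to -0.40 in corn oil and -1.06 to -0.58 in furan samples. In whole liver fewer cells of a type and less RNA per cell cannot be told apart. All 7 markers were well above background on all 16 arrays. Of 4 erythroid markers 3 fell with furan at 18 h under both centrings. The other, Alas2, was not called under loess (0.22, limma adjusted p = 0.062) but rose under median centring (0.72, adjusted p = 1.84e-05). Under loess the mean level of the erythroid list was -0.02 to 0.21 in corn oil and -0.64 to -0.40 in furan samples. At 18 h, under loess, 1 of 6 Kupffer, 3 of 6 endothelial and 4 of 8 stellate and fibroblast markers fell. So did 1 of 2 cholangiocyte and 2 of 3 lymphocyte markers, while 2 endothelial and 2 stellate markers rose. Of 8 pericentral hepatocyte markers 4 fell and 0 rose, and of 7 periportal ones 2 fell and 2 rose. Median centring gave 4 rising and 0 falling for Kupffer, 3 and 1 for endothelial, and 3 and 1 for stellate markers. It gave 0 and 1 for cholangiocyte, 1 and 1 for lymphocyte, 3 and 2 for pericentral and 3 and 2 for periportal markers. The part of these cell markers in the results was not tested.

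**Figure D1:**
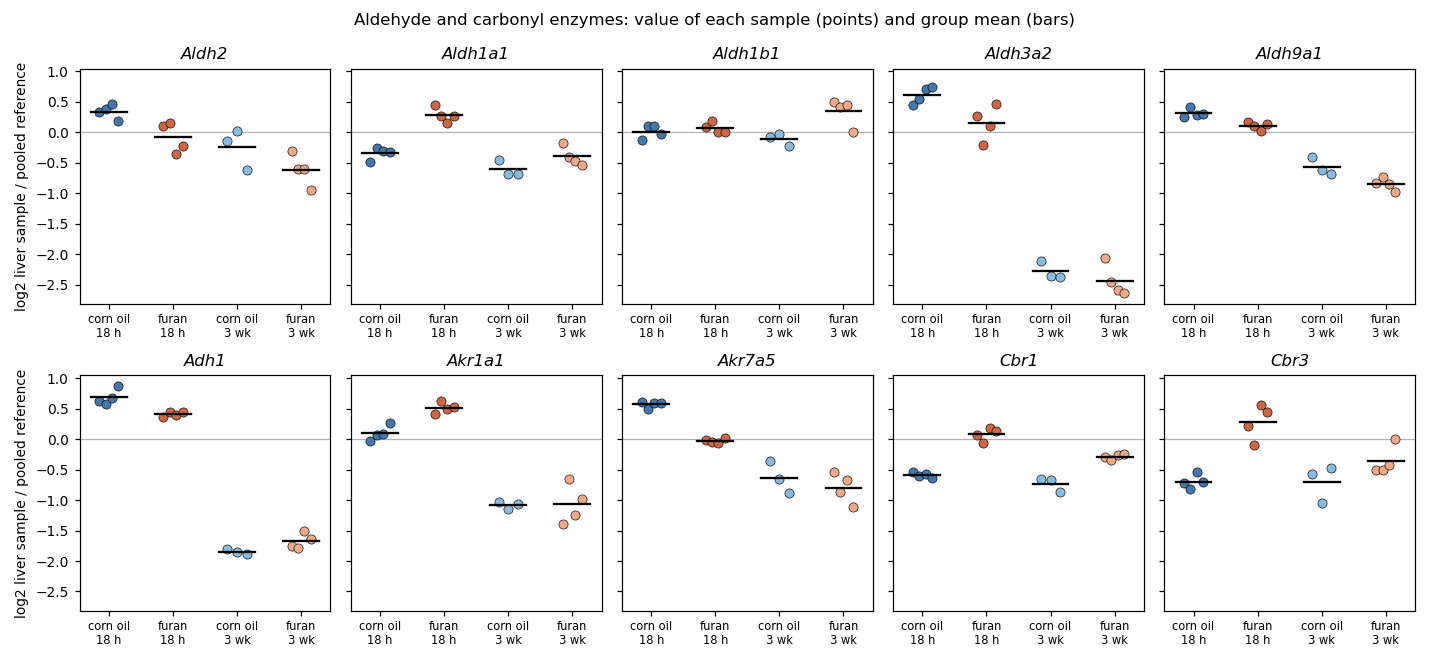
Log2 ratio of liver over the pooled reference (y axis) for each sample (points) and group mean (bars) of the 10 genes, in the corn oil and furan groups at 18 h and 3 weeks in formalin. Aldh3a2 and Adh1 stand at or above 0.10 at 18 h except for 1 furan sample of Aldh3a2 at -0.21, and at or below -1.51 in all 3-week samples, while Cbr1 is higher with furan at both times.

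Furan at 18 h in formalin, with the arrays centred by loess, gave calls for 8 of the 10 genes, 4 higher and 4 lower, where 20.4% of all probes were called higher and 26.8% lower. The carbonyl reductases Cbr1 and Cbr3, the aldehyde reductase gene Akr1a1 and the retinaldehyde dehydrogenase gene Aldh1a1 rose. Under the loess centring used here the probes of Aldh2, Aldh3a2, Akr7a5 and Adh1 fell, but with each array centred on its median none of these 4 was called, and only Akr7a5 kept its direction. Median centring called 6 of the 10 genes, 6 higher and 0 lower, as Aldh1b1 and Aldh9a1 joined the 4 rising genes. The median difference of the 10 genes was -0.07, beside -0.05 over all probes. Values of furan and corn oil samples did not overlap in 8 of the 10 genes, as in 39.2% of all probes.

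The carbonyl reductases reduce ketones, quinones and aldehydes with NADPH in the cytosol. Cbr1 stood at -0.54, -0.60, -0.58 and -0.64 in corn oil samples 2, 3, 4 and 6 and at 0.07, -0.06, 0.19 and 0.14 in furan samples 41 to 44. Every furan sample lay above every corn oil sample. The rise was 0.68 (SE 0.08, 95% interval 0.49 to 0.86, limma adjusted p = 0.000121), or 1.60-fold, and within the slides it was 0.60 and 0.76. Cbr3, a close relative of Cbr1, stood at -0.72, -0.82, -0.54 and -0.70 in the corn oil samples and at 0.22, -0.10, 0.56 and 0.44 in the furan samples, again without overlap. It rose by 0.97 (SE 0.12, 95% interval 0.70 to 1.24, limma adjusted p = 0.00015), or 1.96-fold, more in size than 98.2% of probes. Its probe was well above background on all 8 arrays at 18 h.

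Akr1a1 encodes an aldehyde reductase that also makes precursors of ascorbate in the mouse. Its corn oil values were -0.03, 0.07, 0.09 and 0.26, and its furan values 0.41, 0.63, 0.50 and 0.53. The furan samples lay above all corn oil samples, with corn oil sample 6 nearest to them. The rise was 0.42 (SE 0.09, 95% interval 0.21 to 0.63, limma adjusted p = 0.00397). Akr7a5, a reductase known for acting on the dialdehyde form of aflatoxin and on succinic semialdehyde, went the other way. Corn oil samples stood at 0.61, 0.50, 0.60 and 0.60 and furan samples at -0.02, -0.04, -0.07 and 0.02. Both groups were tight and lay apart. The difference was -0.61 (SE 0.08, 95% interval -0.78 to -0.44, limma adjusted p = 0.000156) under loess and -0.07 (adjusted p = 0.678) under median centring.

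Aldh1a1 encodes a cytosolic enzyme that oxidises retinaldehyde and lipid aldehydes. It stood at -0.49, -0.26, -0.31 and -0.33 with corn oil and at 0.44, 0.27, 0.15 and 0.26 with furan, with no overlap. It rose by 0.63 (SE 0.08, 95% interval 0.44 to 0.82, limma adjusted p = 0.00021), or 1.55-fold. Aldh1a7 is a close paralog, and whether the probe also binds its transcript was not tested.

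Aldh2, the mitochondrial enzyme that clears acetaldehyde, stood at 0.33, 0.38, 0.46 and 0.18 with corn oil and at 0.10, 0.15, -0.36 and -0.23 with furan. Furan samples 43 and 44 were the lowest, and samples 41 and 42 came close to corn oil sample 6 without crossing it. The difference was -0.42 (SE 0.09, 95% interval -0.62 to -0.22, limma adjusted p = 0.00319) under loess but 0.12 (adjusted p = 0.503) under median centring. Aldh3a2, the microsomal dehydrogenase of long-chain fatty aldehydes, had corn oil values of 0.44, 0.54, 0.71 and 0.74 and furan values of 0.27, -0.21, 0.10 and 0.47. Furan sample 44 lay above corn oil sample 2, so the groups overlapped. The difference of -0.45 (SE 0.14, 95% interval -0.75 to -0.15, limma adjusted p = 0.0185) became 0.09 (adjusted p = 0.659) under median centring. The Aldh3a2 call was lost without corn oil sample 4 or 6 or furan sample 42 or 43, with an adjusted p of up to 0.0604.

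Aldh9a1, which oxidises aminobutyraldehydes on the way to carnitine and GABA, and Aldh1b1, a mitochondrial relative of Aldh2, were not called. Aldh9a1 stood at 0.25, 0.41, 0.29 and 0.30 with corn oil and at 0.17, 0.11, 0.02 and 0.14 with furan. Its groups did not overlap, yet the difference of -0.20 (SE 0.08, 95% interval -0.38 to -0.02) missed the threshold (limma adjusted p = 0.0593), and under median centring it was 0.35 (adjusted p = 0.0261). Aldh1b1 ranged from -0.13 to 0.10 with corn oil and from 0.00 to 0.19 with furan. Its difference was 0.06 (95% interval -0.11 to 0.23, limma adjusted p = 0.563), and 0.56 (adjusted p = 0.000516) under median centring.

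Adh1, the class I alcohol dehydrogenase abundant in hepatocytes, stood at 0.63, 0.58, 0.68 and 0.87 with corn oil. With furan it stood at 0.36, 0.44, 0.39 and 0.44, below all corn oil samples. The difference was -0.29 (SE 0.09, 95% interval -0.48 to -0.09, limma adjusted p = 0.0198) under loess but 0.25 (adjusted p = 0.129) under median centring. The Adh1 call was also lost with the authors' deposited values (-0.18, adjusted p = 0.101), with Agilent's own log ratio (-0.22, adjusted p = 0.162), and without corn oil sample 6 or furan sample 43 (adjusted p up to 0.0599).

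The falls thus depended on the centring of the arrays for their calls, and the rises for their size. Under median centring Cbr1 rose by 1.25 in place of 0.68, Aldh1a1 by 1.19 in place of 0.63, Akr1a1 by 0.88 in place of 0.42 and Cbr3 by 1.28 in place of 0.97. Median centring put the median furan difference of all probes at 0.10 and that of the 1905 brightest probes (mean log2 brightness of at least 12) at 0.55, where loess put them at -0.05 and -0.01. Of the 10 genes 6 are among those bright probes: Aldh2, Aldh1a1, Aldh3a2, Akr7a5, Cbr1 and Adh1. Relative to the all-probe median of the median-centred arrays, Aldh2 differed by 0.02, Aldh3a2 by -0.01, Adh1 by 0.16 and Akr7a5 by -0.17. Relative to the bright probes of the same arrays they differed by -0.43, -0.46, -0.29 and -0.62. Aldh1a1, Akr1a1, Cbr1 and Cbr3 were called higher under all 6 ways of correcting and centring that give different log ratios, and without each of the 8 samples in turn. On slide 2 alone Akr1a1 was not called (0.40, adjusted p = 0.074). When the share of spots above background was added to the model, 491 of 29688 probes and 0 of the 10 genes were called; Cbr1 was then 0.56 (adjusted p = 0.14), Cbr3 0.63 (adjusted p = 0.211), Aldh1a1 0.79 (adjusted p = 0.0696) and Akr1a1 0.40 (adjusted p = 0.335). The share and furan cannot be told apart in these 8 samples.

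**Figure D2:**
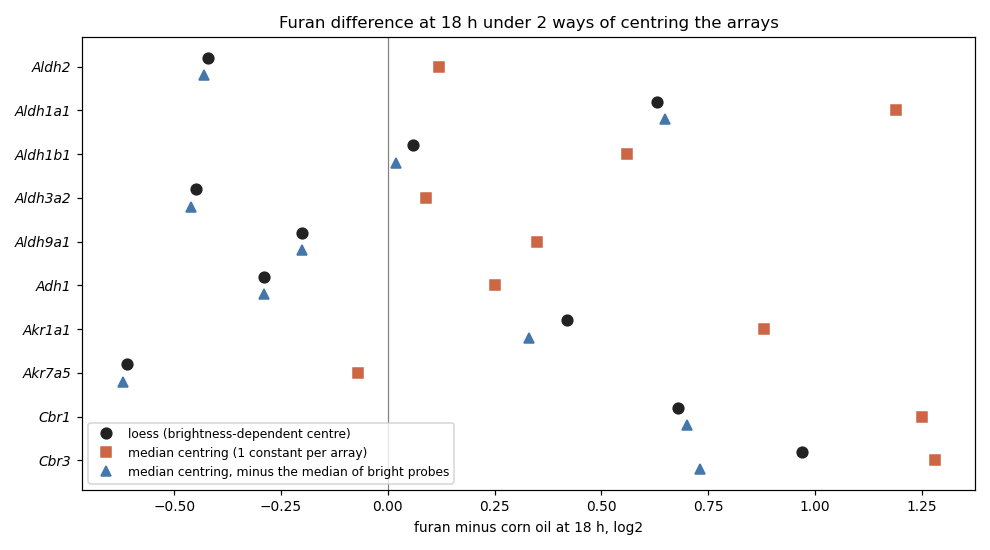
Furan minus corn oil at 18 h in log2 units (x axis) for each gene (y axis), with arrays centred by loess (circles), by their median (squares), and by their median relative to the bright probes (triangles). The squares lie to the right of the circles for every gene. Those of Aldh2, Aldh3a2, Aldh9a1 and Adh1 lie above 0 where the circles lie below it. All 3 marks lie above 0 for Aldh1a1, Akr1a1, Cbr1 and Cbr3, and also for Aldh1b1 (circle 0.06, triangle 0.02). Aldh1b1, Aldh9a1, Akr1a1 and Cbr3 are themselves dimmer than the bright probes.

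At 3 weeks in formalin none of the 10 genes was called by limma between 4 furan and 3 corn oil samples. Only 35 of all probes were, 26 of them higher, while 13.8% of probes had an unadjusted p under 0.05. Among the members 4 had such a p: Cbr1 (0.00667), Aldh1b1 (0.0106), Aldh2 (0.0363) and Cbr3 (0.0475). Groups did not overlap for 4 of the 10, as for 13.4% of all probes. The median difference of the 10 was 0.10, beside 0.00 over all probes.

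Cbr1 stood at -0.66, -0.67 and -0.86 in corn oil samples 2, 4 and 6 and at -0.30, -0.35, -0.26 and -0.25 with furan. All furan samples lay above all corn oil samples, as at 18 h. The difference was 0.44 (SE 0.13, 95% interval 0.15 to 0.73, limma adjusted p = 0.2). In a fit that took its spread from all 15 samples, the 18 h groups included, Cbr1 was called (adjusted p = 0.0226). That fit called 1299 probes in all. Cbr3 had corn oil values of -0.58, -1.04 and -0.48 and furan values of -0.51, -0.51, -0.42 and 0.01, which overlapped. On the 3-week corn oil arrays its probe was never well above background, and it was so on 3 of the 4 furan arrays. In normalized sample-channel brightness the furan mean was 7.73 against 7.67 in corn oil, a measured ratio of 1.04-fold. Setting dim values to a floor left the corn oil mean at 7.67, so this ratio is not a lower bound. The fitted difference was 0.34 (SE 0.15, limma adjusted p = 0.355).

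Aldh1b1 stood at -0.08, -0.03 and -0.23 with corn oil and at 0.49, 0.42, 0.45 and 0.01 with furan. Furan sample 44 lay far below the other furan samples and just above the corn oil samples. The difference was 0.45 (SE 0.14, 95% interval 0.13 to 0.77, limma adjusted p = 0.221), and it was called in the fit with all 15 samples (adjusted p = 0.0288). Aldh9a1 (-0.40, -0.62 and -0.69 against -0.83, -0.74, -0.85 and -0.98) and Adh1 (-1.81, -1.86 and -1.88 against -1.76, -1.79, -1.51 and -1.64) did not overlap either. Their differences were -0.28 (limma adjusted p = 0.395) and 0.18 (adjusted p = 0.594). Aldh1a1 had a difference of 0.21 (95% interval -0.10 to 0.53), Akr1a1 of 0.01 (-0.40 to 0.41) and Akr7a5 of -0.16 (-0.55 to 0.22). Those of Aldh2 (-0.37, -0.71 to -0.03) and Aldh3a2 (-0.15, -0.49 to 0.19) were likewise not called. The intervals of Aldh1a1, Akr1a1, Akr7a5 and Aldh3a2 leave room for change in either direction. Those of Aldh1b1 and Aldh2 lie on 1 side of 0, but the intervals are not adjusted for the number of probes. Under median centring Aldh1a1 (0.72, adjusted p = 0.00757), Aldh1b1 (0.80, adjusted p = 0.00704), Cbr1 (0.96, adjusted p = 0.00141) and Adh1 (0.67, adjusted p = 0.0145) were called higher, with 2317 probes called in all; the differences of Aldh2, Aldh3a2, Aldh9a1 and Akr7a5 were then 0.02, 0.23, 0.07 and 0.25, none called.

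**Figure D3:**
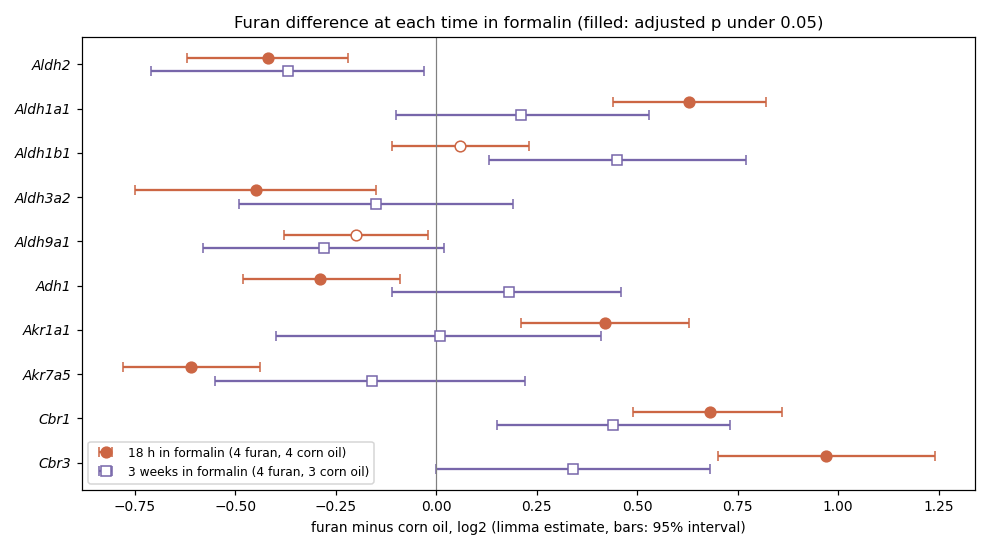
Furan minus corn oil in log2 units (x axis) with 95% intervals of the limma fit (bars) for each gene (y axis) at 18 h (circles) and 3 weeks (squares); filled marks have an adjusted p under 0.05. The 18 h marks are filled for 8 genes and the 3-week marks for none; the marks of Aldh2, Aldh3a2, Aldh9a1 and Adh1 at 18 h, and of Aldh2, Aldh3a2, Aldh9a1 and Akr7a5 at 3 weeks, lie on the other side of 0 under median centring.

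Whether the furan difference itself changed with the time in formalin was tested as an interaction over the 15 samples. It was called for 2 of the 10 genes, 1 in each direction, where 12.8% of all probes were (7.82% upward and 4.93% downward). For Cbr3 the furan difference was smaller at 3 weeks, by -0.63 (SE 0.20, 95% interval -1.05 to -0.22, limma adjusted p = 0.0434), but Cbr3 was dim at 3 weeks as given above. For Adh1 it went from -0.29 to 0.18, a change of 0.46 (SE 0.14, 95% interval 0.17 to 0.75, limma adjusted p = 0.0347); the change was 0.42 (adjusted p = 0.21) under median centring. Both calls were lost in a fit with the sample number as a block (adjusted p = 0.265 for Cbr3 and 0.101 for Adh1), and the Cbr3 call was kept in 14 and the Adh1 call in 21 of 34 alternatives, left-out samples included. Both also depended on single samples. Leaving out single samples kept the Cbr3 call in 4 of 15 fits (adjusted p up to 0.0996) and the Adh1 call in 8 of 15 (adjusted p up to 0.0856). The Cbr3 call held only without corn oil sample 4 or furan sample 42 of the 18 h groups, or without corn oil sample 4 or furan sample 44 of the 3-week groups. The Adh1 call was lost without corn oil sample 4 or 6 or furan sample 41, 43 or 44 of the 18 h groups, and without corn oil sample 6 or furan sample 43 of the 3-week groups. The remaining genes were not called, with changes from -0.42 for Aldh1a1 (adjusted p = 0.0702) to 0.45 for Akr7a5 (adjusted p = 0.124).

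Nearly the whole set was lower after 3 weeks in formalin. Relative to the centre of each array, 9 of the 10 genes were called lower at 3 weeks and 0 higher, where 74.2% of all probes were called, 36.9% lower and 37.3% higher. The median difference of the 10 genes was -0.74, beside 0.01 over all probes, and 5 of the 10 did not overlap between the times, as did 35.3% of all probes. Under loess some other lists were also lower and some were not. Of the 7 hepatocyte markers 5 were called lower and 1 higher, with a median of -1.0, and of the 6 endothelial markers 4 were lower and 1 higher, with a median of -0.51. Among the oxidase, glyoxalase and alkenal-handling genes 7 of 10 were lower and 2 higher, with a median of -0.93. Lymphocyte markers had 2 of 3 called higher and 0 lower, with a median of 0.31. Pericentral hepatocyte markers had 4 of 8 called higher and 3 lower, with a median of 0.08. Kupffer, stellate, periportal, cholangiocyte and erythroid lists had called genes in both directions, with medians between -0.27 and -0.01. Median centring called 0 pericentral markers higher and 5 lower (median -0.50), and 0 and 0 lymphocyte markers (median 0.09). It gave 2 and 4 for hepatocyte, 0 and 5 for endothelial, 1 and 4 for Kupffer and 1 and 5 for stellate markers. Periportal markers were then 1 and 6, cholangiocyte 1 and 1, and erythroid 1 and 3. The part of these cell markers in the result was not tested. All 9 calls of the members held without each of the 15 samples in turn and under the 6 ways of correcting and centring. On slide 1 alone Cbr1 was not called, and on slide 2 alone Cbr3 was not.

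Aldh3a2 moved most. Its 18 h samples ranged from -0.21 to 0.74 and its 3-week samples from -2.64 to -2.06, in both treatments. The difference was -2.74 (SE 0.11, 95% interval -2.98 to -2.50, limma adjusted p = 1.84e-12), or 6.68-fold lower, more in size than 99.4% of probes. Adh1 ranged from 0.36 to 0.87 at 18 h and from -1.88 to -1.51 at 3 weeks. It was 4.96-fold lower at 3 weeks, by -2.31 (SE 0.07, limma adjusted p = 7.08e-14), more in size than 98.5% of probes. These sizes are those under loess, and under median centring Aldh3a2 differed by -3.35 and Adh1 by -2.45. Both genes were lower at 3 weeks in each treatment: the difference was -2.89 with corn oil and -2.59 with furan for Aldh3a2, and -2.54 and -2.08 for Adh1. The Adh1 values of the 3-week corn oil samples lay below those of the furan samples, and the unequal change of Adh1 is the interaction given above.

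Akr1a1 (-1.38, SE 0.10, limma adjusted p = 1.82e-09), Akr7a5 (-0.99, SE 0.09, adjusted p = 5.51e-08) and Aldh9a1 (-0.92, SE 0.07, adjusted p = 2.53e-09) also separated the times without overlap. Akr1a1 was well above background on 3 of 4 furan arrays at 3 weeks and on all others. Aldh2 (-0.56, adjusted p = 1.52e-05) and Aldh1a1 (-0.47, adjusted p = 1.99e-05) overlapped between the times. Under loess the carbonyl reductases were called lower by the smallest amounts. Cbr1 differed by -0.26 (SE 0.07, adjusted p = 0.00216) and Cbr3 by -0.32 (SE 0.10, adjusted p = 0.00752); for Cbr3, too dim at 3 weeks for a firm value, it was 0.00 with corn oil and -0.64 with furan. Aldh1b1 was not called (0.08, adjusted p = 0.354), but was lower under median centring (-0.60, adjusted p = 7.76e-06). Median centring also gave larger differences for Akr1a1 (-2.13), Akr7a5 (-1.51), Aldh9a1 (-1.52), Aldh2 (-0.88), Aldh1a1 (-0.67), Cbr1 (-0.53) and Cbr3 (-0.83). With the share of spots above background in the model, Aldh3a2, Adh1, Akr1a1 and Aldh9a1 remained called among 5067 probes, and the other 5 did not.

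**Figure D4:**
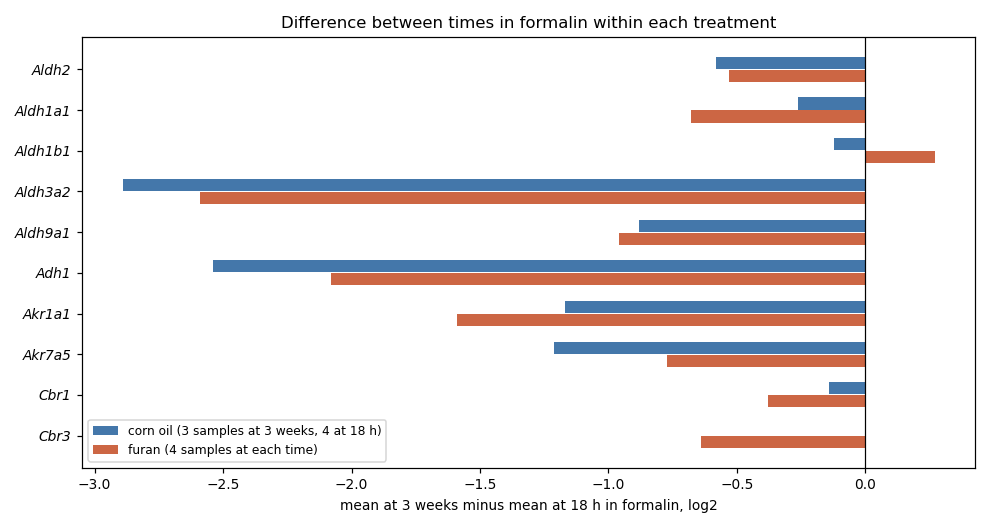
Mean at 3 weeks minus mean at 18 h in formalin, in log2 units (x axis), for each gene (y axis), with corn oil and furan as separate bars. Aldh3a2 and Adh1 have bars at or below -2.08 in both treatments; Cbr3 shows no bar for corn oil because its difference was 0.00, and Aldh1b1 reaches 0.27 with furan, though Aldh1b1 is lower at 3 weeks over both treatments under median centring.

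Under loess the order of the 4 groups differed between genes. For Adh1 and Aldh9a1 no neighbouring groups overlapped: Adh1 was highest in corn oil at 18 h (0.69 ± 0.13, SD, n = 4), then furan at 18 h (0.40 ± 0.04, n = 4), furan at 3 weeks (-1.68 ± 0.13, n = 4) and corn oil at 3 weeks (-1.85 ± 0.04, n = 3). Aldh9a1 ran from 0.31 ± 0.07 and 0.11 ± 0.06 at 18 h to -0.57 ± 0.15 in corn oil and -0.85 ± 0.10 in furan at 3 weeks. In Cbr1 both furan groups stood above both corn oil groups. Its means were 0.09 ± 0.11 (furan, 18 h), -0.29 ± 0.05 (furan, 3 weeks), -0.59 ± 0.04 (corn oil, 18 h) and -0.73 ± 0.11 (corn oil, 3 weeks), and no neighbours overlapped. Cbr3 had the same leading group, furan at 18 h (0.28 ± 0.29), but this overlapped furan at 3 weeks (-0.36 ± 0.25), and both corn oil groups stood at -0.70. Aldh1a1 was also highest in furan at 18 h (0.28 ± 0.12), and its other 3 groups overlapped their neighbours, from -0.35 ± 0.10 down to -0.61 ± 0.13. In Akr1a1 and Akr7a5 only the 3-week groups overlapped each other (-1.08 ± 0.06 and -1.07 ± 0.32 for Akr1a1, -0.63 ± 0.26 and -0.80 ± 0.25 for Akr7a5, corn oil first). In Aldh3a2 they overlapped (-2.28 ± 0.14 and -2.43 ± 0.26), and so did the 18 h groups. Aldh1b1 overlapped between all neighbours, and Aldh2 between all but the 18 h groups. These orders depended in part on the centring. Under median centring furan stood above corn oil at 18 h for Adh1 (0.25), Aldh9a1 (0.35), Aldh2 (0.12) and Aldh3a2 (0.09). At 3 weeks it did so for Aldh9a1 (0.07), Aldh2 (0.02), Aldh3a2 (0.23) and Akr7a5 (0.25).

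Across the 15 samples the pair most alike was Aldh3a2 and Adh1 (Pearson r = 0.98), but their deviations from the group means correlated at -0.08, so the likeness lay between the groups. Cbr1 and Cbr3 correlated at 0.88 (deviations 0.35). The lowest was Aldh1b1 with Aldh9a1 (-0.35), though their deviations correlated at 0.60. These samples share a reference pool and fall into 4 groups, so r is a description only. Over 13032 other genes with a symbol, the probe most like Cbr1 was that of Txnrd1, the cytosolic thioredoxin reductase (r = 0.96, 15 samples), with furan differences of 0.91 at 18 h and 0.48 at 3 weeks; 37 genes exceeded 0.9. For Cbr3 it was Stmn1 (r = 0.93), a protein that destabilises microtubules, with 11 genes above 0.9, and for Aldh1a1 Tor1aip2 (r = 0.98, 106 genes). For Aldh2 it was Psma6, a proteasome subunit (r = 0.96, 50 genes), and for Aldh1b1 Gpr139 (r = 0.90, 1 gene). The genes whose samples did not overlap between the times in formalin had crowds of neighbours. With Aldh3a2 1173 genes exceeded 0.9 (nearest Aup1), and with Adh1 1179 did (Sla2). There were 1022 with Aldh9a1 (Tmprss6), 956 with Akr1a1 (Wdr5) and 728 with Akr7a5 (Tecr), the nearest each at 0.99.

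The wider pathway was mixed at 18 h under loess, and under median centring more of its genes were called higher. Of 12 measured further aldehyde dehydrogenase genes (15 listed) 3 rose and 2 fell, with a median of 0.11; median centring gave 6 and 1. Aldh6a1, the methylmalonate semialdehyde dehydrogenase of valine breakdown, fell by 1.38 (SE 0.10, limma adjusted p = 1.07e-05), and Aldh1a7, the paralog of Aldh1a1, rose by 0.56 (SE 0.08, adjusted p = 0.000448). Of 11 further aldo-keto reductase genes (14 listed) 3 rose and 2 fell, with a median of 0.02, against 7 and 0 under median centring. Akr1c19 rose by 0.62 (SE 0.11, adjusted p = 0.00137), and Akr1c6, a hydroxysteroid dehydrogenase, differed by -0.45 (SE 0.08, adjusted p = 0.00111) under loess and 0.09 under median centring. Members of the Akr1c cluster are close paralogs, so which transcript their probes report is uncertain.

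Of 18 further alcohol dehydrogenases and short-chain reductases (21 listed) 3 rose and 5 fell, with a median of 0.02, against 9 and 3 under median centring. Adhfe1, a mitochondrial member of the iron-dependent alcohol dehydrogenase family, fell by 0.91 (SE 0.09, limma adjusted p = 3.19e-05). Rdh11, a retinal reductase, rose by 0.67 (SE 0.11, limma adjusted p = 0.000618). Of the 10 oxidases, glyoxalase genes and alkenal-handling genes 2 rose and 5 fell, with a median of -0.25, against 5 and 2 under median centring. The prostaglandin reductase genes Ptgr1 and Ptgr2, whose enzymes also reduce alkenals and related ketones, went opposite ways. Ptgr1 rose by 0.60 (SE 0.10, adjusted p = 0.000751) and Ptgr2 fell by 1.06 (SE 0.08, adjusted p = 1.52e-05). Over all genes, by their brightest probe, 21.7% were called higher and 26.6% lower, with a median of -0.04. The named genes of these 4 lists other than Akr1c6 kept their sign under median centring.

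At 3 weeks no gene of the 4 lists was called by limma under loess, with list medians between -0.09 and 0.04, while median centring called 3, 3, 3 and 1 higher. The furan difference changed with time in formalin for 1 to 3 genes of each list, where 7.43% of all genes changed upward and 5.16% downward. By smallest p these were Aldh6a1 (1.05, SE 0.15, limma adjusted p = 0.001) and Aldh4a1 (-0.52, adjusted p = 0.0473), Akr1d1 (-0.53, adjusted p = 0.0462), Adhfe1 (0.88, adjusted p = 0.00354) and Rdh11 (-0.65, adjusted p = 0.0202), and Xdh, xanthine dehydrogenase (1.02, SE 0.15, adjusted p = 0.00103). Between the times in formalin the 4 lists had called genes in both directions: 4 higher and 6 lower, 5 and 5, 5 and 11, and 2 and 7, in the order above, where 41.1% of all genes were called higher and 34.3% lower. Under median centring these were 1 and 6, 1 and 6, 3 and 11, and 2 and 8.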

How the data were processed

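The authors' scanner files, read with Agilent Feature Extraction 11.0.1.1 per the file headers, hold median spot and background signals as intensity, not normalized, and a log10 ratio of processed signals. The authors' deposited value table is on a log2 scale, sample over reference, close to loess-normalized values without background subtraction; its method is not given in the sources used here. Its column medians were 0.000797, 0.0033, -0.0051 and 0.00438 (18 h corn oil 2, 3, 4, 6), 0.0247, 0.0204, 0.0163 and 0.0187 (18 h furan 41 to 44), -0.00872, -0.00919, -0.00159 and -0.00869 (3-week corn oil 2.1, 2.2, 4, 6), and -0.00715, -0.00825, -0.00445 and -0.00133 (3-week furan). In it, columns 2.1 and 2.2 each matched the other's scanner file best, which leaves their average unaffected. The direction of the ratios follows the dyes in the labels.

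Here, signals were corrected by normexp (offset 50) and loess, spots the scanner software marked as outliers (187 to 308 per array) were dropped, and probes were kept when well above background on at least 3 arrays of a group. R 4.3.3 with limma 3.58.1 fitted each probe with the slide as a term, two-sided, and p-values were adjusted by Benjamini-Hochberg over 29688 probes at 0.05. Each furan comparison took its spread from its 2 groups alone, and the interaction and time comparisons from all 15 samples. A lead probe is a gene's brightest kept probe. Of 55681 probes 27235 matched a RefSeq symbol and 28446 did not. The files name build mm9; no genome was used and probes were not mapped. The arrays' number limits the precision. The code was tested on simulated data. Members and lists were chosen with earlier results of these data known, from the 10 members, the smallest p in each direction of each list, and the most correlated gene of each member. Alternatives covered background, centring, filters, slide, variance model, signal share, arrays 2.1 and 2.2, number pairing and left-out samples; the bright-probe reference and the lists under each centring were added after seeing the data. Sample numbers recur at both times but were not used as a block in the reported fits.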

Additional observations from a re-analysis of the deposited data

Results flagged for a closer look

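Among the 30 sets of 4 samples examined (10 genes in 3 groups), 3 held a sample whose gap to the others exceeded Dixon's limit of 0.829 of the range, where chance gives about 1 in 20. Akr7a5 in 18 h corn oil sample 3 was 0.50, against 0.60 to 0.61 in the others (gap 0.967 of the range). Aldh1b1 in 3-week furan sample 44 was 0.01, against 0.42 to 0.49 (0.852). Cbr3 in the same sample was also 0.01, but on the high side of -0.51 to -0.42 (0.83). The furan difference changed between the times in formalin by -0.63 for Cbr3 (limma adjusted p = 0.0434) and by 0.46 for Adh1 (adjusted p = 0.0347).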

How the results depend on the processing

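Probes called for furan at 3 weeks, 35, became 450 without background subtraction, 2317 under median centring (2082 higher), 0 with Agilent's log ratio (3563 at an unadjusted p under 0.05), 312 with the authors' values, 72 without the slide term and 65 with the slide as a random block. They became 0 on slide 1 alone (2192 unadjusted), 265 on slide 2 alone, 20 with a trended robust variance, 0 with the share of spots above background (1993 unadjusted), 322 with arrays 2.1 and 2.2 separate, 17 with 2.1 only, 22 with 2.2 only, 1299 with the spread of all 15 samples, and 0 to 770 in limma fits that left out 1 sample: 3 without corn oil 2, 770 without corn oil 4, 0 without corn oil 6 (3223 unadjusted), and 12, 9, 7 and 5 without furan 41, 42, 43 and 44. The 14025 probes called at 18 h became 8151 on slide 1, 7049 on slide 2 and 491 with the share of spots, and 12085 to 13045 without 1 sample. The 3787 interaction calls became 2286 with Agilent's log ratio, 2222 without a filter, 0 on slide 1 (5760 unadjusted, limma), 1 on slide 2, and 2548 to 4006 without 1 sample. The 22017 calls between the times became 5067 with the share of spots and 21436 to 21968 without 1 sample. Calls that were higher made up 43.2% at 18 h, but 78.6% under median centring and 55% with the authors' values; for the interaction they were 61.3%, 27.5% and 44%, and between the times 50.3% and 24.7% under median centring. Under median centring the sign turned at 18 h for Aldh2 (0.12), Aldh3a2 (0.09), Aldh9a1 (0.35) and Adh1 (0.25), and between the times for Aldh1b1 (-0.60); the cause was not tested. Sample numbers recur at both times; deviations of same-numbered samples correlated at 0.02 to 0.18, not all over 0.1, and 5 of 7 matched their own number best, a hint of pairing that the labels do not settle. With the sample number as a replicate block beside the slide, 1565 interaction calls were left, with Cbr3 at -0.50 (limma adjusted p = 0.265) and Adh1 at 0.57 (adjusted p = 0.101), and 9 members stayed called between the times. Aquantile after loess leaves the log ratios unchanged and tested nothing. Over the other alternatives the members gave 1066 values with the same direction and side of the threshold, 63 that lost a call, 22 that gained a call, 5 that turned with a call on one side, and 24 uncalled values that turned, 14 of them for furan at 3 weeks. Signal over background limits Cbr3 at 3 weeks and, on 1 array, Akr1a1.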
